A study of Homo sapiens with 14 samples.

Results

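The genes described here are 50 genes of DNA replication and S phase, chosen by name: every non-control probe whose accession maps to one of them in RefSeq was taken. The list was chosen with earlier results of these data known, so its shares beside all probes do not come from a blind choice. All 50 were matched, by 60 probes, out of 20992 genes and 29033 probes that could be named among the 50599 probes of the array. Total RNA of the human glioblastoma lines A172 and U87-MG (U87 in the labels) was measured on 14 one-colour Agilent arrays after transfection by electroporation with an siRNA against exon 1 of the long noncoding RNA LINC00152 (siLINC00152) or with a negative control siRNA. Cells were harvested at 40 h according to the labels. There were 3 A172 cultures with each siRNA and 4 U87-MG cultures with each siRNA, which the study describes as independent biological replicates. They are numbered as sets in the labels, which do not say what a set is. A control and a knockdown culture of the same number were taken as a pair. Both lines grew as monolayers in serum-containing medium, and each is an established line, so the replicates are cultures of the same cells. Each A172 set lay on its own slide, and all 8 U87-MG arrays lay on another slide, so that cell line and slide cannot be told apart for levels. The U87-MG arrays were dimmer, with 35.7% to 48.3% of the 58717 non-control spots well above background against 57.3% to 69.0% on the A172 arrays.

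The lines were checked against marker genes. VIM, NES, CD44, EGFR and FN1 were well above background on all 14 arrays, SOX2 on all A172 arrays and on 0 of the 8 U87-MG arrays, GFAP on 1 A172 array and S100B on 0 arrays. Of 5 blood and liver markers, 3 passed the detection filter in each line. The probes of PTPRC and CD3E were among those that passed in both lines, and those of HBB and ALB passed in neither. Of 5 epithelial markers, EPCAM and CDH1 did not pass in either line, KRT8 and KRT19 passed in both and KRT18 in A172; KRT8 fell in U87-MG, with a log2 fold change -0.53 ± 0.11 (SE, adjusted p = 0.0577), but was called in 10 of 17 alternative settings only: without the replicate block its adjusted p was 1, and without U87-MG set 1 or 3 it was at -0.45 and -0.49, short of the fold threshold. The mesenchymal marker CD44 fell in A172, with a log2 fold change -1.13 ± 0.12 (SE, adjusted p = 0.00753), and had a log2 fold change of 0.12 ± 0.10 (SE, adjusted p = 0.505) in U87-MG; its effect differed between the lines by -1.25 (adjusted p = 0.0289). Without the replicate block the A172 call of CD44 was lost (adjusted p = 1). Whether CD44 or KRT8 bears on the replication genes was not tested.

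Replication starts when origins are licensed in G1: the origin recognition complex, CDC6 and CDT1 load the MCM helicase onto DNA. The helicase is activated by CDC45 and the GINS complex at the start of S phase, and polymerases, the PCNA clamp and its loaders then copy both strands while nucleotide synthesis and histone chaperones supply the fork. Most of these genes are transcribed under E2F factors, which the retinoblastoma protein restrains until cells commit to division. In cultures that are not synchronised, fewer cells in S phase and less RNA per cell cannot be told apart.

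E2F factors recognise a short GC-rich element, so the promoters of the 6 members with the smallest adjusted p in either line among those with a promoter entry are shown (RefSeq, GRCh38.p14), from 250 bases before to 50 bases after the start of the gene, 5′ to 3′ on the strand of the gene. Their positions are chr17:40287629-40287928 (plus strand) for CDC6, chrX:24693668-24693967 (plus strand) for POLA1, chr16:88803539-88803838 (plus strand) for CDT1, chr12:4538640-4538939 (plus strand) for RAD51AP1, chr1:52404374-52404673 (minus strand) for ORC1 and chr20:33686336-33686635 (minus strand) for E2F1. Capitals mark matches to TTTCCCGC, TTTGGCGC or TTTNNCGC on either strand (GCGGGAAA, GCGCCAAA and GCGNNAAA when read on the printed strand); the last motif includes both others.
CDC6: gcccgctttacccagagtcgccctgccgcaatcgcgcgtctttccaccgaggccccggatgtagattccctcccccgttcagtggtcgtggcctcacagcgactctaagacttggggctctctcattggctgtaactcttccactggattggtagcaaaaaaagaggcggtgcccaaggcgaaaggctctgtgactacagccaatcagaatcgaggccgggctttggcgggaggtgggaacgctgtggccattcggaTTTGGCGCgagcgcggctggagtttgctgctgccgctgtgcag
POLA1: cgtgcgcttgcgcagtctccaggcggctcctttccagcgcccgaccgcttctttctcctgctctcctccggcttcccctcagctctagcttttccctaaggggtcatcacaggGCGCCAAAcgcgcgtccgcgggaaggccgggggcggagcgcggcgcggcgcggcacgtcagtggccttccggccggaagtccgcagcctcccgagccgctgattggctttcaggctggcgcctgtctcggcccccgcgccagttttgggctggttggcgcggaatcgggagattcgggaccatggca
CDT1: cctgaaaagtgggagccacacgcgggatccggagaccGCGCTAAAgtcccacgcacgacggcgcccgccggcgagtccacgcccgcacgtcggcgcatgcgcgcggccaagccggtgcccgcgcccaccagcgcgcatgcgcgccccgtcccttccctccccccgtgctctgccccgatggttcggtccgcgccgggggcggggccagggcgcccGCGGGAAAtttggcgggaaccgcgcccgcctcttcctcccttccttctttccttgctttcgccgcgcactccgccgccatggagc
RAD51AP1: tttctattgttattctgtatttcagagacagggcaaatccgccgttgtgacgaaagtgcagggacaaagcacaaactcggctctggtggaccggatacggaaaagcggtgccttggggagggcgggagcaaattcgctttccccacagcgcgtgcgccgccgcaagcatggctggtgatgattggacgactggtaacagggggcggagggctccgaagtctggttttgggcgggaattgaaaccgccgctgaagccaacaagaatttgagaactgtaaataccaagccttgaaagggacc
ORC1: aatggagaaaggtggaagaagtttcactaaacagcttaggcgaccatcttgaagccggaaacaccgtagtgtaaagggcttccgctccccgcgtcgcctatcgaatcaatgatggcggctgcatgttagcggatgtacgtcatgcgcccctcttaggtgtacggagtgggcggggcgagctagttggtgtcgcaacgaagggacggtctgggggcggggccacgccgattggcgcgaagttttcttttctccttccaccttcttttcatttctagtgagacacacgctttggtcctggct
E2F1: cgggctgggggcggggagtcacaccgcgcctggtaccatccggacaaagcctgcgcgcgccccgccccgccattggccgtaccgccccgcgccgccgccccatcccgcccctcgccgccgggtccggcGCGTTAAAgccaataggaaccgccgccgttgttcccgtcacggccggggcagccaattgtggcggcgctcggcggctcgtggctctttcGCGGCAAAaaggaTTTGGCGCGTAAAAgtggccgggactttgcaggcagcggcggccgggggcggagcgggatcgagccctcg
The CDC6 promoter held 1 match, to TTTGGCGC, 7 to 14 bases after the start, and the POLA1 promoter 1 match to the same motif on the other strand. CDT1 had 2 matches, 1 of them to TTTCCCGC. E2F1 had 4, including 1 to TTTGGCGC that overlaps the next match, so that both appear as 1 run of capitals. RAD51AP1 and ORC1 held none of these letters in the window. Over the 43 members with a promoter entry, TTTCCCGC was present in 11 (25.6%), TTTGGCGC in 9 (20.9%) and TTTNNCGC in 23 (53.5%). Among all 35116 promoters of this length the shares were 1.63%, 0.652% and 6.89%.

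LINC00152 itself (named CYTOR in RefSeq) was read first as a check of the knockdown. Levels throughout are log2 processed signals minus the 75th percentile of the array, and arrays are listed by set number. LINC00152 levels were 2.63, 2.44 and 2.48 in A172 controls and 0.23, -0.42 and -0.10 after siLINC00152, and 1.94, 1.83, 1.71 and 1.82 in U87-MG controls and -1.21, -0.88, -0.74 and -0.79 after siLINC00152. Every knockdown array lay below every control array of its line. The log2 fold change was -2.61 ± 0.16 (SE, adjusted p = 0.00154) in A172 and -2.73 ± 0.13 (SE, adjusted p = 0.000165) in U87-MG.

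In A172, 45 of the 50 members passed the detection filter, which asked for signal well above background on 3 or more arrays in either siRNA group, and in U87-MG 46 did. Of these, 3 members in A172 and 4 in U87-MG passed through 1 group only. A gene was called where the false discovery rate was below 0.2 and the log2 fold change exceeded 0.5 in size, in a limma model with the set as a block. In A172, CDT1, ORC1 and E2F1 rose, and DSCC1 was called higher after passing the filter through the knockdown group alone, where it was high (together 4 of 45, against 1.12% of all 28336 probes tested called higher). No member was called lower there (0 of 45, against 2.22% of all probes). At an unadjusted p under 0.05, 15 of 45 members were positive (33.3%, against 5.01% of all probes) and 1 negative (2.22%, against 5.81%). In U87-MG, POLA1 fell, and CDC6 was called lower after passing through the control group alone, where it was high (together 2 of 46, against 2.78% of all 21918 probes tested called lower). None was called higher (0 of 46, against 2.77% of all probes). At an unadjusted p under 0.05, 2 of 46 were positive (4.35%, against 10.5% of all probes) and 5 negative (10.9%, against 9.05%). Over all named genes with 1 probe each, the shares called higher and lower were 1.45% and 2.64% in A172 and 3.34% and 2.43% in U87-MG. All 6 calls rest on the pairing: without the replicate block, 0 members were called in either line, and each of the 6 had an adjusted p of 1 (over all probes, A172 then had 52 calls and U87-MG 11). Leaving out A172 set 1, 2 or 3 left 0 A172 calls (359, 278 and 236 of all probes), and without U87-MG set 1, 2 or 4, which share the estimate of the spread, 1, 1 and 2 were left (701, 731 and 753 of all probes). Without U87-MG set 3 the U87-MG count was 5 of 46, beside 1003 of all 21918 probes. With no filter on dim probes 0 members were called in either line (587 and 330 of 50595 probes). Normexp background correction also gave 0 in both (636 and 142 of all probes), although CDT1, E2F1 and ORC1 then passed the false discovery rate in A172 (adjusted p = 0.0098, 0.0273 and 0.0649) and missed the fold threshold, at 0.47, 0.42 and 0.32.

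The members' median log2 fold change in A172 was 0.25, beside 0.02 over all probes tested, and 35 of 45 members (77.8%) had positive fold changes, beside 55.9% of all named genes with 1 probe each and 54.4% of all probes. In U87-MG the members' median was 0.04, beside -0.02 over all probes, and 24 of 46 (52.2%) were positive, beside 52.5% of the named genes and 47.4% of all probes. Within the A172 sets, the members' median difference between knockdown and control was 0.15, 0.33 and 0.14 in sets 1, 2 and 3, and without set 2 the A172 median was 0.14. In U87-MG it was -0.03, -0.08 and -0.10 in sets 1, 2 and 4 and 0.27 in set 3, whose arrays were the dimmest (35.7% and 40.4% of spots well above background). Without set 3 the U87-MG median was -0.08 (0.00 over all probes), and the 5 members then called, all lower, were CDC6, POLA1, RAD51AP1, RRM2 and BLM (1003 of all 21918 probes were called); BLM, like CDC6, was tested through the control group alone (well above background on 3 of 4 control and 1 of 4 knockdown arrays). Positive members then numbered 17 of 46, and the sign turned for MCM3, MCM4, MCM6, PCNA, FEN1, TYMS, CHAF1B, SLBP and DTL. Of the members not called, 23 of 41 in A172 and 35 of 44 in U87-MG had fold changes that moved by more than 1.5 times or across 0 when some set of their own line was left out, so single values of these genes are loose. What the dimness of set 3 contributes was not tested.

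**Figure D1:**
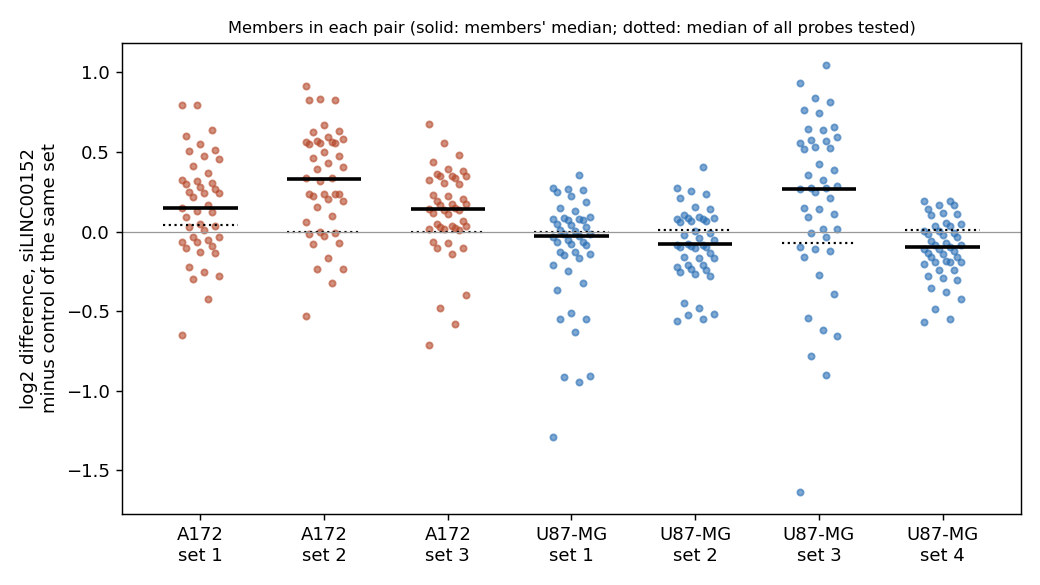
Log2 difference between the knockdown and control array of each set (vertical axis) for the members tested, 1 point per gene, by cell line and set. The solid line is the members' median and the dotted line the median of all probes tested; the members' median lay above that of all probes in the 3 A172 sets and in set 3 of U87-MG, and below it in the other U87-MG sets.

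**Figure D2:**
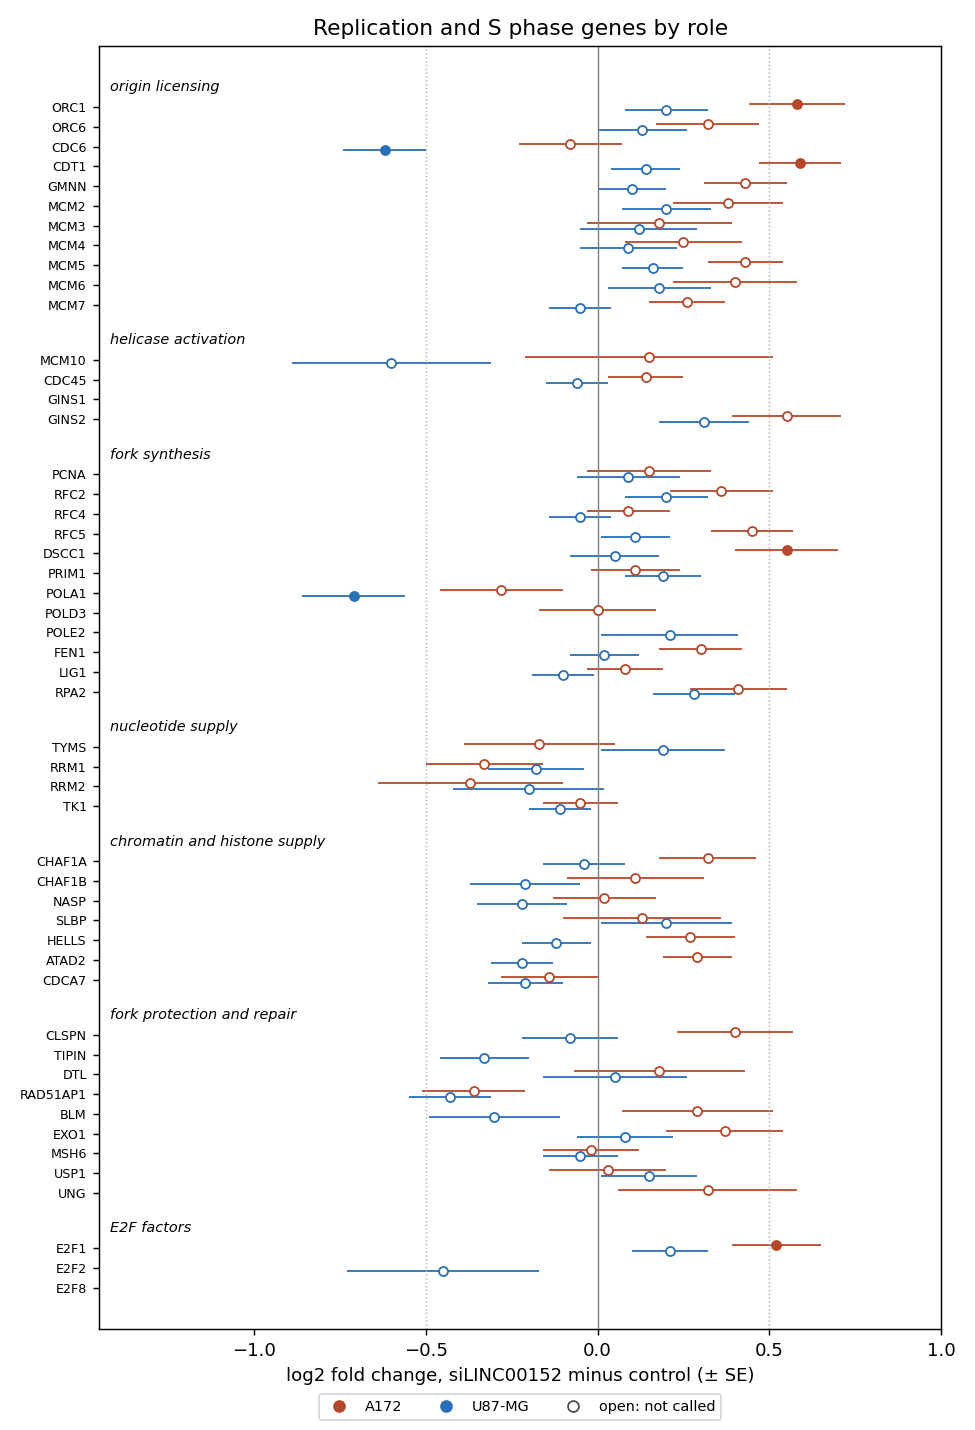
Log2 fold change after siLINC00152 (horizontal axis, bars ± SE) of each member by role, in A172 (red) and U87-MG (blue). Filled points were called, dotted lines mark a log2 fold change of 0.5 in either direction, and genes with no point did not pass the filter; the 4 filled A172 points lie right of 0 and the 2 filled U87-MG points left of it.

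Among the origin licensing genes, CDT1, which brings the MCM helicase to origins, had log2 levels of 0.58, 0.51 and 0.41 in A172 controls and 1.38, 1.09 and 0.79 after siLINC00152. In U87-MG its levels were 2.00, 2.23, 1.51 and 1.83 in controls and 2.04, 2.31, 1.76 and 1.99 after knockdown. The A172 groups did not overlap, whereas in U87-MG each knockdown array lay above its own control within overlapping groups. CDT1 rose in A172, with a log2 fold change 0.59 ± 0.12 (SE, adjusted p = 0.09), and had 0.14 ± 0.10 (SE, adjusted p = 0.471) in U87-MG. Its A172 call held in 11 of 17 alternative settings. ORC1, the largest subunit of the origin recognition complex, was at -1.05, -1.58 and -1.41 in A172 controls and -0.41, -0.96 and -0.93 after knockdown. Its U87-MG levels were 0.37, 0.41, 0.10 and 0.62 and 0.56, 0.67, 0.63 and 0.47. Again the A172 groups were apart, and U87-MG knockdown was above control in 3 of 4 sets. The log2 fold change of ORC1 was 0.58 ± 0.14 (SE, adjusted p = 0.15) in A172, where it was called, and 0.20 ± 0.12 (SE, adjusted p = 0.376) in U87-MG. The A172 call of ORC1 held in 9 of 17 alternative settings.

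CDC6, the ATPase that works with CDT1 in loading the helicase, went the other way in U87-MG. Its levels there were -1.67, -1.63, -2.75 and -1.32 in controls and -2.57, -2.15, -3.53 and -1.59 after siLINC00152, and in A172 -1.57, -2.85 and -1.90 and -1.82, -2.87 and -1.88. Each U87-MG knockdown array lay below its own control, although the groups overlapped and both set 3 arrays were low. CDC6 was dim: it was well above background on 3 of 4 U87-MG control arrays and 1 of 4 knockdown arrays. It was called lower in U87-MG, with a log2 fold change -0.62 ± 0.12 (SE, adjusted p = 0.0504), but was tested there through the control group alone, and 3 of the 4 knockdown signals behind the fold were not well above background. It had -0.08 ± 0.15 (SE, adjusted p = 0.995) in A172. With normexp background correction the U87-MG log2 fold change was -0.11 (adjusted p = 0.504), and under a filter that asks for every array of a group CDC6 was not tested. MCM2, a subunit of the MCM helicase, had levels of 3.26, 2.76 and 2.86 in A172 controls and 3.81, 3.32 and 2.89 after knockdown, and of 3.84, 3.95, 3.05 and 3.69 and 3.88, 4.04, 3.58 and 3.81 in U87-MG. Knockdown was above control in all 7 sets, by little in set 3 of A172. The log2 fold changes were 0.38 ± 0.16 (SE, adjusted p = 0.422) and 0.20 ± 0.13 (SE, adjusted p = 0.421), neither called, and without set 3 the U87-MG value was 0.08.

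The other subunits of the MCM helicase had A172 log2 fold changes of MCM3 0.18, MCM4 0.25, MCM5 0.43, MCM6 0.40 and MCM7 0.26, and in U87-MG of MCM3 0.12, MCM4 0.09, MCM5 0.16, MCM6 0.18 and MCM7 -0.05. A further MCM7 probe was at 0.2 in A172 and at -0.24 in U87-MG (adjusted p = 0.244), where knockdown was below control in each set. MCM5 passed the false discovery rate in A172 (adjusted p = 0.169) but not the fold threshold, and so did GMNN, the inhibitor of CDT1 (0.43, adjusted p = 0.195), and the clamp loader subunit RFC5. At this rule without a fold threshold, 7 of 45 members were higher in A172, beside 1.39% of all probes. GMNN was at 0.10 in U87-MG, and ORC6, another subunit of the origin recognition complex, at 0.32 in A172 and 0.13 in U87-MG. Of the 11 licensing genes, 10 had positive fold changes in A172 (median 0.38) and 9 in U87-MG (median 0.13). Without U87-MG set 3, 6 of 11 were positive in U87-MG with a median of 0.00, and MCM3, MCM4 and MCM6 were at -0.10, -0.09 and -0.01. Without A172 set 2 the A172 value of MCM3 was 0.00.

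Helicase activation was represented by GINS2, CDC45 and MCM10, while GINS1 was well above background on 0 arrays. GINS2, a subunit of the GINS complex, had levels of 0.82, 0.65 and 1.02 in A172 controls and 1.42, 1.47 and 1.25 after knockdown, with no overlap. In U87-MG it was at 1.72, 1.93, 1.21 and 2.01 and 1.96, 2.16, 1.86 and 2.11, higher after knockdown in all 4 sets. Its log2 fold change of 0.55 ± 0.16 (SE, adjusted p = 0.208) in A172 was just outside the threshold, and in U87-MG it was 0.31 ± 0.13 (SE, adjusted p = 0.246). CDC45, which joins GINS on the helicase, was at 0.89, 0.56 and 0.72 and 1.05, 0.80 and 0.74 in A172 and at 2.02, 2.00, 2.22 and 1.95 and 1.96, 1.98, 2.23 and 1.76 in U87-MG. The CDC45 groups overlapped in both lines, with log2 fold changes of 0.14 ± 0.11 (SE, adjusted p = 0.854) and -0.06 ± 0.09 (SE, adjusted p = 0.717). MCM10, needed for the helicase to start unwinding, was at -1.52, -2.45 and -2.25 and -1.59, -2.61 and -1.57 in A172 and at -1.54, -1.96, -2.10 and -0.89 and -2.46, -1.55, -3.74 and -1.14 in U87-MG, where it was well above background on 2 of 4 knockdown arrays. U87-MG knockdown was below control in 3 sets and above it in set 2, and the log2 fold changes were 0.15 ± 0.36 (SE, adjusted p = 0.997) and -0.60 ± 0.29 (SE, adjusted p = 0.3). Without A172 set 3 the A172 value of MCM10 was -0.12. Without U87-MG set 3 its U87-MG value was -0.25 and that of GINS2 0.19. Without set 2 that of MCM10 was -0.93 (adjusted p = 0.187), which would pass the thresholds for a gene tested through its control group alone, where it was high.

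At the fork, DSCC1, a subunit of an alternative clamp loader, had levels of -1.85, -3.70 and -2.97 in A172 controls, of which 2 of 3 arrays were well above background, and -1.55, -2.79 and -2.53 after knockdown. Its U87-MG levels were -1.04, -0.85, -3.30 and 0.11 and -0.77, -0.75, -3.46 and 0.10, with both set 3 arrays far below the rest. A172 knockdown was above control in each set within overlapping groups. DSCC1 was called higher in A172, with a log2 fold change 0.55 ± 0.15 (SE, adjusted p = 0.195) close to the threshold, having passed the filter through the knockdown group alone and being called in 3 of 17 alternative settings, and had 0.05 ± 0.13 (SE, adjusted p = 0.837) in U87-MG. With normexp its A172 value was 0.15 (adjusted p = 0.356). RFC5, a clamp loader subunit, was at -1.56, -2.31 and -2.06 and -1.10, -1.75 and -1.71 in A172 and at 0.33, 0.14, -0.05 and 0.15 and 0.19, 0.41, 0.06 and 0.34 in U87-MG. It was above control in all A172 sets and in 3 U87-MG sets, with log2 fold changes of 0.45 ± 0.12 (SE, adjusted p = 0.187) and 0.11 ± 0.10 (SE, adjusted p = 0.56).

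POLA1, the catalytic subunit of the polymerase that starts each new strand, fell in U87-MG. Levels there were -0.47, -0.47, -1.76 and -0.21 in controls and -1.76, -1.03, -2.38 and -0.59 after knockdown, and in A172 0.27, -0.95 and -0.42 and 0.14, -1.27 and -0.82. Knockdown was below control in all 7 sets, and the groups overlapped in both lines. The log2 fold change was -0.71 ± 0.15 (SE, adjusted p = 0.0577) in U87-MG, called, and -0.28 ± 0.18 (SE, adjusted p = 0.74) in A172, and with normexp the U87-MG value was -0.20 (adjusted p = 0.176). POLA1 was well above background on 3 of 4 arrays in each U87-MG group, so the filter on every array of a group left it untested. RPA2, which coats single-stranded DNA, was at -0.17, -0.94 and -0.67 and 0.20, -0.27 and -0.48 in A172 and at 1.21, 1.45, 0.59 and 1.07 and 1.48, 1.53, 1.16 and 1.26 in U87-MG. Knockdown was above control in every set of both lines, with log2 fold changes of 0.41 ± 0.14 (SE, adjusted p = 0.328) and 0.28 ± 0.12 (SE, adjusted p = 0.25), neither called. A further RPA2 probe, not called, was at 0.21 in A172 and at 0.45 in U87-MG. In U87-MG its difference was -0.06 in set 1 and 1.6 in set 3. PCNA, the sliding clamp, was at 2.59, 1.76 and 2.20 and 2.90, 1.97 and 2.13 in A172 and at 2.55, 2.63, 0.96 and 2.78 and 2.42, 2.50, 1.62 and 2.76 in U87-MG. Its set 3 control in U87-MG stood apart from the others, and the log2 fold changes were 0.15 ± 0.18 (SE, adjusted p = 0.967) and 0.09 ± 0.15 (SE, adjusted p = 0.738) (-0.09 in U87-MG without set 3). Without that set RPA2 was at 0.18 in U87-MG.

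The clamp loader subunits RFC2 and RFC4, the primase PRIM1, the flap nuclease FEN1 and the ligase LIG1 were not called. Their A172 log2 fold changes were RFC2 0.36, RFC4 0.09, PRIM1 0.11, FEN1 0.30 and LIG1 0.08, and those in U87-MG RFC2 0.20, RFC4 -0.05, PRIM1 0.19, FEN1 0.02 and LIG1 -0.10. Without set 3 the U87-MG values of RFC2 and FEN1 were 0.08 and -0.03. POLD3, a subunit of the lagging strand polymerase, was tested in A172 only (0.00), and POLE2, of the leading strand polymerase, in U87-MG only (0.21, and 0.09 without set 3).

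**Figure D3:**
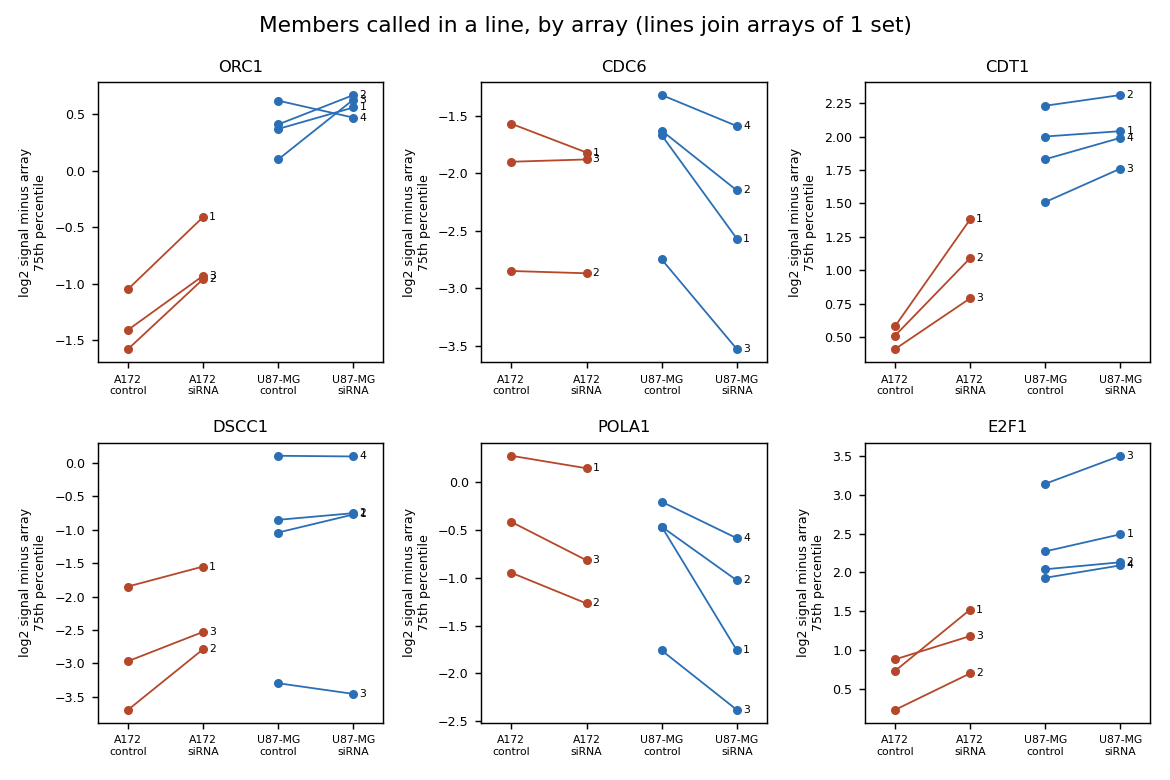
Levels (log2 processed signal minus the 75th percentile of the array, vertical axes) of the 6 members called in a line, in control and siLINC00152 arrays of A172 (red) and U87-MG (blue). Each line joins the arrays of 1 set, numbered at its right end; the 3 A172 lines rise for ORC1, CDT1, DSCC1 and E2F1, and the 4 U87-MG lines fall for CDC6 and POLA1.

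The nucleotide supply genes had negative log2 fold changes in A172, with none called. RRM2, the regulatory subunit of ribonucleotide reductase, was at 2.33, 1.04 and 1.22 and 2.03, 0.81 and 0.64 in A172 and at 2.60, 2.86, -1.17 and 3.32 and 2.05, 2.33, -0.35 and 2.77 in U87-MG. The set 3 arrays of U87-MG were far below the others, and knockdown was below control in every set except that one. The log2 fold changes were -0.37 ± 0.27 (SE, adjusted p = 0.808) and -0.20 ± 0.22 (SE, adjusted p = 0.62), and without set 3 the U87-MG value was -0.54 (adjusted p = 0.0496). RRM1, the catalytic subunit, was at 0.65, -0.45 and 0.46 and 0.37, -0.46 and -0.25 in A172 and at -0.47, -0.73, -0.27 and -0.36 and -0.84, -0.66, -0.25 and -0.78 in U87-MG. The groups overlapped, with log2 fold changes of -0.33 ± 0.17 (SE, adjusted p = 0.598) and -0.18 ± 0.14 (SE, adjusted p = 0.497). TK1, the thymidine salvage kinase, was at 0.96, 0.89 and 0.66 and 1.00, 0.81 and 0.56 in A172 and at 1.16, 1.14, 1.41 and 0.85 and 1.09, 1.06, 1.31 and 0.67 in U87-MG. It was lower after knockdown in each U87-MG set by small steps (-0.11 ± 0.09 (SE, adjusted p = 0.487); A172 -0.05 ± 0.11 (SE, adjusted p = 0.996)). TYMS, which makes thymidylate, had -0.17 in A172 (0.06 without set 1) and 0.19 in U87-MG (-0.02 without set 3).

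Of the chromatin and histone supply genes, none was called. ATAD2, a chromatin ATPase, was at -0.92, -2.14 and -1.68 and -0.62, -1.90 and -1.34 in A172 and at -0.91, -0.83, -1.46 and 0.41 and -1.12, -1.04, -1.73 and 0.22 in U87-MG. Knockdown was above control in each A172 set and below it in each U87-MG set, within overlapping groups. The log2 fold changes were 0.29 ± 0.10 (SE, adjusted p = 0.33) and -0.22 ± 0.09 (SE, adjusted p = 0.206). CHAF1A, of the chromatin assembly factor that loads histones behind the fork, was at 2.03, 1.26 and 1.46 and 2.25, 1.83 and 1.64 in A172 and at 2.24, 2.32, 1.73 and 2.54 and 2.15, 2.08, 2.02 and 2.42 in U87-MG. It was above control in all A172 sets and in set 3 of U87-MG, with log2 fold changes of 0.32 ± 0.14 (SE, adjusted p = 0.493) and -0.04 ± 0.12 (SE, adjusted p = 0.876) (-0.15 in U87-MG without set 3). CDCA7, a partner of HELLS, was at 0.00, -0.30 and -0.28 and -0.23, -0.54 and -0.23 in A172 and at 0.65, 0.73, 0.78 and 1.22 and 0.40, 0.28, 0.87 and 0.98 in U87-MG. Its groups overlapped, with log2 fold changes of -0.14 ± 0.14 (SE, adjusted p = 0.929) and -0.21 ± 0.11 (SE, adjusted p = 0.334). The histone chaperones CHAF1B and NASP, the histone mRNA binding protein SLBP and the remodeller HELLS had A172 values of CHAF1B 0.11, NASP 0.02, SLBP 0.13 and HELLS 0.27, and U87-MG values of CHAF1B -0.21, NASP -0.22, SLBP 0.20 and HELLS -0.12. Set 3 moved these: without it CHAF1B was at 0.02, NASP at -0.08, SLBP at -0.08 and HELLS at -0.21 in U87-MG. Further probes of CHAF1A, NASP, HELLS and CDCA7 gave other values, none called. A CHAF1A probe was at -0.15 in U87-MG, with set 2 at 0.28 and set 3 at -0.26. A NASP probe was at 0.06 in U87-MG. Another NASP probe, tested in A172 through the knockdown group alone, was at 0.27 there. A HELLS probe was at 0.59 in A172. A CDCA7 probe, tested through the control group alone, was at -0.84 in U87-MG (adjusted p = 0.48).

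Among genes of fork protection and repair, RAD51AP1, which acts in recombination at damaged forks, was at 0.09, -1.40 and -0.47 and 0.02, -1.93 and -0.95 in A172 and at 0.29, 0.17, -1.49 and 1.39 and -0.22, -0.38, -1.60 and 0.82 in U87-MG. Knockdown was below control in all 7 sets, within overlapping groups. The log2 fold change was -0.36 ± 0.15 (SE, adjusted p = 0.43) in A172 and -0.43 ± 0.12 (SE, adjusted p = 0.118) in U87-MG, where it passed the false discovery rate but not the fold threshold (3 of 46 members without a fold threshold, beside 6.32% of all probes called lower). CLSPN, the checkpoint mediator at the fork, was at -0.52, -2.19 and -0.97 and -0.10, -1.56 and -0.80 in A172 and at 0.38, -0.09, 0.79 and 0.66 and -0.17, -0.18, 1.06 and 0.71 in U87-MG. It was above control in every A172 set and in 2 of 4 U87-MG sets, with log2 fold changes of 0.40 ± 0.17 (SE, adjusted p = 0.459) and -0.08 ± 0.14 (SE, adjusted p = 0.77) (-0.20 in U87-MG without set 3 and 0.08 without set 1). TIPIN, which stabilises paused forks, was not tested in A172, where its levels of -2.42, -5.23 and -3.88 and -2.41, -4.57 and -3.22 were well above background on 1 control and 2 knockdown arrays. In U87-MG it was at -1.44, -1.14, -3.34 and -0.16 and -1.57, -1.41, -3.88 and -0.52, below control in each set (-0.33 ± 0.13 (SE, adjusted p = 0.229)). The ubiquitin ligase adaptor DTL, the helicase BLM, the nuclease EXO1, the mismatch protein MSH6 and the deubiquitinase USP1 had A172 values of DTL 0.18, BLM 0.29, EXO1 0.37, MSH6 -0.02 and USP1 0.03, and U87-MG values of DTL 0.05, BLM -0.30, EXO1 0.08, MSH6 -0.05 and USP1 0.15. USP1 was tested in U87-MG through the knockdown group alone (well above background on 2 of 4 control and 3 of 4 knockdown arrays). Without set 3 the U87-MG values of DTL, BLM and MSH6 were -0.24, -0.53 and -0.15, and without A172 set 2 the A172 value of DTL was -0.01. The uracil glycosylase UNG was tested in A172 only, through the knockdown group alone (0.32, and from 0.07 to 0.70 with a set left out).

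E2F1, an activating E2F factor, had levels of 0.73, 0.23 and 0.88 in A172 controls and 1.52, 0.70 and 1.18 after siLINC00152. In U87-MG its levels were 2.27, 2.04, 3.14 and 1.93 and 2.49, 2.13, 3.50 and 2.09. Knockdown was above control in all 7 sets, and the groups overlapped in both lines. E2F1 was called higher in A172, with a log2 fold change 0.52 ± 0.13 (SE, adjusted p = 0.155) close to the fold threshold, and had 0.21 ± 0.11 (SE, adjusted p = 0.323) in U87-MG. The A172 call of E2F1 held in 8 of 17 alternative settings, with log2 fold changes from 0.39 to 0.63. E2F2, another activator, was not tested in A172, with levels of -2.68, -2.95 and -3.97 and -2.64, -3.83 and -2.65. In U87-MG it was at -0.23, -0.44, -0.89 and -0.87 and -0.86, -0.92, -1.28 and -1.18, below control in each set (-0.45 ± 0.28 (SE, adjusted p = 0.398)). The repressor E2F8 was well above background on 0 arrays.

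Whether the knockdown acted differently on a gene in the 2 lines was tested by the interaction in limma over the 43 members tested in both. None was called (0 of 43, against 1.32% of all 21162 probes and 1.62% of 11786 named genes with 1 probe each), and 6 members had an unadjusted p under 0.05, beside 10.4% of all probes and 11.2% of named genes. The smallest adjusted p was that of ATAD2, whose A172 effect exceeded the U87-MG effect by 0.51 (95% interval 0.22 to 0.81, adjusted p = 0.225). For CDC6 the difference was 0.54 (95% interval 0.11 to 0.96, adjusted p = 0.372), for CDT1 0.45 (95% interval 0.10 to 0.80, adjusted p = 0.367), for E2F1 0.31 (95% interval -0.06 to 0.69, adjusted p = 0.549) and for POLA1 0.43 (95% interval -0.08 to 0.94, adjusted p = 0.546). The A172 fold change was the higher one for 37 of 43 members (86.0%), beside 51.3% of named genes and 54.4% of all probes. Without U87-MG set 3, 1 member was called different: BLM, which was tested in U87-MG through the control group alone, where it was high.

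Control levels of the same probe were set side by side as a description, since line and slide cannot be told apart. Of the 43 members, 36 (83.7%) had a higher control mean in U87-MG, beside 57.2% of named genes and 56.4% of all probes tested in both. PCNA was counted as higher by 0.05 only. Its further probes had lower control means in U87-MG (1.45 against 2.00 in A172, and -0.19 against 1.03). Further probes of other members kept the direction. Members and all probes were not matched for brightness. The median difference, U87-MG minus A172, was 0.66 over the members and 0.16 over all probes. For MCM5 the control means were 2.09 ± 0.12 (SD, n = 3) in A172 and 4.32 ± 0.22 (SD, n = 4) in U87-MG, and for E2F1 0.61 ± 0.34 and 2.34 ± 0.55. NASP was 8.10 ± 0.71 in A172 and 5.82 ± 0.54 in U87-MG. A further NASP probe had control means of 7.93 and 5.63. Another was far dimmer, at -2.98 and -3.88, and was well above background on 0 U87-MG arrays. The level of NASP thus depends on the probe.

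Other genes of the pathway were read by list. Over all probes tested, 1.12% were called higher and 2.22% lower in A172, and 2.77% and 2.78% in U87-MG. Of 45 other replication genes, 0 of 43 tested were called in A172 (1 was below the false discovery rate), and in U87-MG 1 of 39, GINS3 of the GINS complex, fell, with a log2 fold change of -0.66 (adjusted p = 0.0969). A further probe of SAMHD1, which degrades nucleotides, was called higher in U87-MG after passing the filter through the knockdown group alone (well above background on 1 of 4 control and 3 of 4 knockdown arrays; 0.99, adjusted p = 0.0117), while its brightest probe was at -0.02. Of 22 RB and E2F regulators (21 tested in A172 and 18 in U87-MG), SKP2, the ubiquitin ligase subunit that targets CDT1 and the CDK inhibitor CDKN1B, rose in both lines, with log2 fold changes of 1.10 (adjusted p = 0.0401) in A172 and 0.61 (adjusted p = 0.0881) in U87-MG. The CDK inhibitor CDKN1A fell in both, with -0.91 (adjusted p = 0.0705) and -0.78 (adjusted p = 0.0447). Of 22 checkpoint and S phase repair genes, none of 18 was called in A172, and 2 of 17 were called lower in U87-MG. RMI2, a partner of BLM, fell in U87-MG (-0.52 (adjusted p = 0.111)). The clamp loader RAD17 was called lower there (-0.52 (adjusted p = 0.174)) after passing through the control group alone, in 4 of 16 alternative settings only, and was at -0.33 (adjusted p = 0.37) without U87-MG set 2; leaving out any A172 set or U87-MG set 1 or 4 also ended this call. Of 20 mitotic genes, 1 of 20 tested was called in A172 and 1 of 19 in U87-MG: FOXM1, a transcription factor of mitotic genes, fell, with -1.39 (adjusted p = 0.0177) in A172 and -0.97 (adjusted p = 0.0282) in U87-MG. Without the replicate block FOXM1 was still called in A172 (adjusted p = 0.0897) and not in U87-MG (0.371), and the other calls named here were lost, with adjusted p of 0.718 for SKP2 in A172, 0.3 for the SAMHD1 probe and 1 for the rest. In A172, SKP2 and CDKN1A also lost their calls without set 2 (adjusted p = 0.254 and 0.305) or set 3 (0.298 and 0.327). In U87-MG, SKP2 missed the fold threshold without set 3 (0.41), GINS3 missed the false discovery rate without set 4 (adjusted p = 0.203), and RMI2 was lost without set 1, 2 or 4 (adjusted p = 0.266, 0.209 and 0.229). In U87-MG the calls of GINS3, SKP2, RMI2 and RAD17 were also lost with normexp, and these and that of CDKN1A with no filter on dim probes. SKP2 was lost there with each line fitted by itself (adjusted p = 0.209), and RAD17 too (0.302). With quantile normalization or the deposited table RMI2 (-0.49 and -0.47) and RAD17 (-0.47 and -0.48) missed the fold threshold.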

How the data were processed

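The authors deposited the scanner output of 14 arrays, in which Feature Extraction 11.5.1.1 gave the intensity of each spot after background removal, and a log2 table that the deposited values show to be quantile normalized. Here log2 processed signals were reduced by the 75th percentile of each array, spots marked as non-uniform or population outliers were left out, and spots of a probe were averaged. A probe was well above background on an array when at least 0.5 of its spots were, and was tested in a line if 3 or more arrays of its control or knockdown group met this. The number of arrays limits the precision. Probes whose contrast could not be estimated (4 in each line) were left out. limma 3.58.1 in R 4.3.3 (lmFit, eBayes) was fitted to all arrays with cell line and set number as a block (7 levels, 5 residual degrees of freedom), and Benjamini-Hochberg adjustment covered all probes of a contrast. Calls needed a false discovery rate below 0.2 and a log2 fold change of more than 0.5 in size, as in the methods of the study. Only the thresholds are shared. The study reported far fewer genes than the probes called here, and its U87-MG list holds neither CDC6 nor POLA1.

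The set numbers come from the labels. The correlation of deviations from group means was 0.675 to 0.794 in A172 and 0.373 to 0.864 in U87-MG for arrays sharing a number. For others it was -0.701 to -0.0434 and -0.772 to 0.411. Subtracting group means itself pushes the values for others below 0 where arrays sharing a number correlate. In A172, arrays sharing a number also shared a slide, so set and slide cannot be told apart there. The numbers were used as pairs, although the 2 ranges of U87-MG overlap and the labels do not describe the pairing.

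Accessions were matched without version to RefSeq (GRCh38.p14). A gene was represented by its brightest probe among those tested. The members and lists were chosen with earlier results of these data known. All members are named by role. Values on every array are given for the 2 members of each role with the smallest unadjusted p in each line and for PCNA, MCM2, CDC6, RRM2 and E2F1. Genes of other lists are named where called, and the SAMHD1 probe was named after its values were seen. The model was tested on simulated data. Alternatives were no replicate block, each line fitted by itself, quantile normalization, normexp (offset 50, median signal and background), the deposited log2 table, no filter or a stricter filter on dim probes, outlier spots kept, the mean of a gene's probes, eBayes with trend and robust, a false discovery rate of 0.05, no fold threshold, and each set left out. The labels give 40 h between transfection and harvest and the study's text another time. A few genes that were read are left out of the text.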

Additional observations from a re-analysis of the deposited data

Results flagged for a closer look

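Values on every array were looked at in the 48 groups of 4 U87-MG arrays of 24 genes (the 23 members given by array and LINC00152), and in 3 groups 1 array lay far from the others by Dixon's ratio, with a critical value of 0.829. Chance gives such a sample in about 1 of 20 groups. All 3 were the control array of set 3, the dimmest array. Its PCNA level was 0.96, against 2.55 to 2.78 on the other controls (ratio 0.871). Its POLA1 level was -1.76, against -0.47 to -0.21 (ratio 0.829, which passes the limit as tabulated by less than its rounding and would not pass the same limit given to 4 decimals, 0.8298). Its RRM2 level was -1.17, against 2.60 to 3.32 (ratio 0.841). Whether its dimness accounts for these levels was not tested. No member's knockdown effect was called different between the lines.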

How the results depend on the processing

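The A172 count of 4 called members, beside 945 of all 28336 probes, was 5 with each line fitted by itself (1612 of all probes), 4 with trend and robust (1062; with GINS2 in place of DSCC1) and 4 with the stricter filter (945; it asks the same of groups of 3), and 3 with quantile normalization (760), the deposited log2 table (698), outlier spots kept (945) or the mean of a gene's probes (685 of 23905 genes or unnamed probes). It was 0 without the replicate block, 0 with normexp, 0 without a filter on dim probes, 0 at a false discovery rate of 0.05 and 7 without a fold threshold. With a set left out it ranged from 0 (any A172 set) to 5 (U87-MG set 3, where 1439 of all probes were called). The U87-MG count of 2, beside 1216 of all 21918 probes, was 0 without the replicate block, with normexp, without the filter, with the stricter filter (892 of 18602 probes) and at 0.05, and 2 or 3 under the other settings; with a set left out it ranged from 2 to 5 (without set 3, with 1003 of all probes). The count of members with a different effect was 0 under every setting that gives it (lines fitted separately give none), except 1 without U87-MG set 3, so from 0 to 1 over the sets left out. The A172 median of 0.25 was 0.14 with normexp, and from 0.14 (without A172 set 2) to 0.29 with a set left out. The U87-MG median of 0.04 ranged from -0.08 (without set 3) to 0.06 with a set left out, and its other values moved by less than the spread between sets. Among the genes named here as called in a line, none changed sign under any setting that tested it. This does not cover the called SAMHD1 probe. More probes are tested without the filter and fewer sets with a set left out; for the other settings the cause was not tested. Dim signal limits CDC6, POLA1, MCM10, BLM and DSCC1, among others, which were not well above background on every array.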
